A study of Mus musculus with 3 samples.

Results

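The 10 genes described here mark tissue macrophages: Csf1r, Emr1, Pf4, Mrc1, C1qa, C1qb, C1qc, Cd68, Ptprc and Aif1. They were taken by symbol from tables of 43280 genes, in which F4/80 stands under its older symbol Emr1 (Adgre1 in current annotation). All 10 were found. Each also passed an expression floor, a mean of at least 5 CPM (counts scaled to a common library size) over the libraries, that 12127 genes of the tables passed.

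RNA came from mouse skeletal mesenchyme at E15.5, described in the series' design as calvarial, and each of 3 genotypes was sequenced as 1 library. The dTF-cKO library was labelled beta-catenin fx/dm; Dermo1-Cre. The cKO library was labelled beta-catenin fx/fx; Dermo1-Cre, and the control beta-catenin fx/fx, with no Cre named. Both Cre libraries and the control therefore carried at least 1 floxed Ctnnb1 allele, and no fx/dm library without Cre was analysed here. Dermo1-Cre is driven from the Twist2 locus, which is active in mesenchymal progenitors. Macrophages are of blood origin, and recombination in them was not measured. The labels do not say what dm stands for or how many embryos went into a library.

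Tissue macrophages of the embryo descend from yolk sac and fetal liver precursors, settle in developing organs and take up dying cells. Their survival depends on the receptor CSF1R and its ligands CSF1 and IL-34, a requirement they share with osteoclasts, the bone-resorbing cells of the skull. C1q, which they secrete, opens the classical complement pathway. Mannose receptor, CD68 and F4/80 are the proteins by which they are usually recognised in tissue sections.

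The libraries differed widely outside the macrophage genes. They held between 2678457 and 3634819 counts, and 1 count equalled 0.357, 0.354 and 0.280 CPM in the dTF-cKO, cKO and control after scaling by TMM (trimmed mean of M-values). Ctnnb1, the targeted gene, stood at 442 CPM in the dTF-cKO, 745 in the cKO and 1026 in the control. Of 14 genes of skull mesenchyme and osteoblasts, which define the labelled tissue, 12 were at least 2-fold lower in the dTF-cKO and 8 in cKO than control tissue. Of 15 epidermal genes, 15 and 14 were at least 2-fold higher. Of all genes that passed the floor, 20.9% and 6.78% were at least 2-fold lower, and 19.5% and 9.66% higher. In these lists Bglap passed the floor only through the control, and Ivl and Dsg1a only through the cKO. Xist had 2 and 0 counts in the dTF-cKO and cKO, against 1233 in the control, and 4 Y-linked genes summed to 444 and 362 counts, against 0, so sex-linked expression and genotype cannot be told apart. With 1 library a genotype nothing could be tested, and every interval below is an exact 95% interval of counting error only. In bulk RNA, fewer macrophages and less RNA per macrophage cannot be told apart.

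Promoter sequence is shown for 4 members whose counts parted company between the libraries: C1qb from C1qc among the complement chains, and Cd68 and Pf4 from the rest. The sequences are RefSeq windows of GRCm38.p6, the build named mm10 in the submitters' processing notes, and run from 250 bases before to 50 bases after the start of transcription. Capitals mark GAGGAA, a purine-rich core bound by PU.1, the transcription factor of the macrophage lineage, on either strand (TTCCTC where it lies on the other strand).
C1qb, chr4:136886151-136886450, minus strand: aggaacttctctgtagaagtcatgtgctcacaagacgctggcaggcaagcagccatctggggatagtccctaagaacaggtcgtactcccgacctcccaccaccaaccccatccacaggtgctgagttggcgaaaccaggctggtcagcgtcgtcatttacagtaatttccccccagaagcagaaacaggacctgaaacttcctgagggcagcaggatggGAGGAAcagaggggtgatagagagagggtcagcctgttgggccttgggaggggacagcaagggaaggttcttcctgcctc
C1qc, chr4:136892865-136893164, minus strand: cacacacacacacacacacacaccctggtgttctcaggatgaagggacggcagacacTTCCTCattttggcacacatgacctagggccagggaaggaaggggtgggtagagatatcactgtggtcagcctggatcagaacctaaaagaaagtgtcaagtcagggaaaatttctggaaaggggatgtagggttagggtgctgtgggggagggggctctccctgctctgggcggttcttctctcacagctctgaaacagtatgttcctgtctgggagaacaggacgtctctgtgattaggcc
Cd68, chr11:69666121-69666420, minus strand: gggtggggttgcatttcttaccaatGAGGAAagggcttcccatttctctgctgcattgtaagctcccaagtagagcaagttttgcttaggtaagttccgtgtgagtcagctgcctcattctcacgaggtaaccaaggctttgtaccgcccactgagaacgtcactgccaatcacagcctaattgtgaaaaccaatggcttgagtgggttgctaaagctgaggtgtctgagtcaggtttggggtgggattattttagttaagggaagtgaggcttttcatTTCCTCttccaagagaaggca
Pf4, chr5:90772185-90772484, plus strand: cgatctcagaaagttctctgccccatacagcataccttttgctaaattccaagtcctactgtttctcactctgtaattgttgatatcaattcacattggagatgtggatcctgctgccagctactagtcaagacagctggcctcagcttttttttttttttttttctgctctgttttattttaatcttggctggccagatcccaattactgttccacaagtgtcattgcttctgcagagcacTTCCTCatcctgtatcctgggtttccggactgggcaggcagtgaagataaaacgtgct

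Of the 7 members with such a window (Pf4, Mrc1, C1qb, C1qc, Cd68, Ptprc and Aif1), 7 held GAGGAA at least once, as did 7 of their 8 windows, Ptprc having a second window that did not. The same letters were found in 28.3% of all 32851 windows. In C1qb the match began 30 bases before the start, on the strand of transcription. In C1qc it began 193 bases before it and in Pf4 8 bases before it, both on the opposite strand. Cd68 held 2 matches, beginning 225 bases before and 29 bases after the start. The E-box CACGTG was found in none of the 8 windows, against 7.15% of all, and TATAAA in 1 of them, that of Ptprc, against 13.6% of all. The 3 motifs share no overlapping match in the members. These are matches of letters and say nothing of binding.

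Macrophage genes as a group were most abundant in the cKO library. The 10 summed to 748 counts in the dTF-cKO, 1441 in the cKO and 1083 in the control, or 0.0257%, 0.0538% and 0.0298% of all counts. On the TMM scale the sum came to 267, 510 and 303 CPM in the dTF-cKO, cKO and control. The cKO sum was 1.68-fold that of the control (1.55 to 1.82), and it lay above the control under all 5 scalings tried. The dTF-cKO sum was 0.882-fold that of the control (0.803 to 0.969) and 0.524-fold that of the cKO (0.479 to 0.573), but both lay above 1 when libraries were scaled to 45 genes of vessels and connective tissue, called the stroma scaling below.

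In the cKO against the control, 3 of the 10 genes were at least 2-fold higher on the log2 scale (Pf4, Mrc1 and C1qb) and 0 at least 2-fold lower. C1qb stood on the limit, at a log2 difference of 1.003, and ran from 0.81 to 1.10 across the 5 scalings. Over all 12127 genes, 9.66% were at least 2-fold higher and 6.78% at least 2-fold lower. The median log2 difference of the 10 genes was 0.71, against 0.055 over all genes. In the dTF-cKO against the control, 2 were at least 2-fold higher (Cd68 and Pf4) and 3 at least 2-fold lower (Csf1r, C1qc and C1qa, of which C1qc and C1qa lay above the control under the stroma scaling), where 19.5% and 20.9% of all genes were. The median there was -0.25, against 0.055 over all genes. In the dTF-cKO against the cKO, 1 gene was at least 2-fold higher (Cd68) and 5 at least 2-fold lower (C1qc, Csf1r, C1qa, Mrc1 and C1qb). Of all genes 14.5% and 20.5% were, and the medians were -1.06 for the 10 genes and 0.0081 over all. C1qc and Csf1r lay below the cKO under all 5 scalings, but only at -0.32 and -0.16 under the stroma scaling. C1qa, Mrc1 and C1qb lay below it under 4 of 5. The 3 comparisons share libraries and are not independent of each other.

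**Figure D1:**
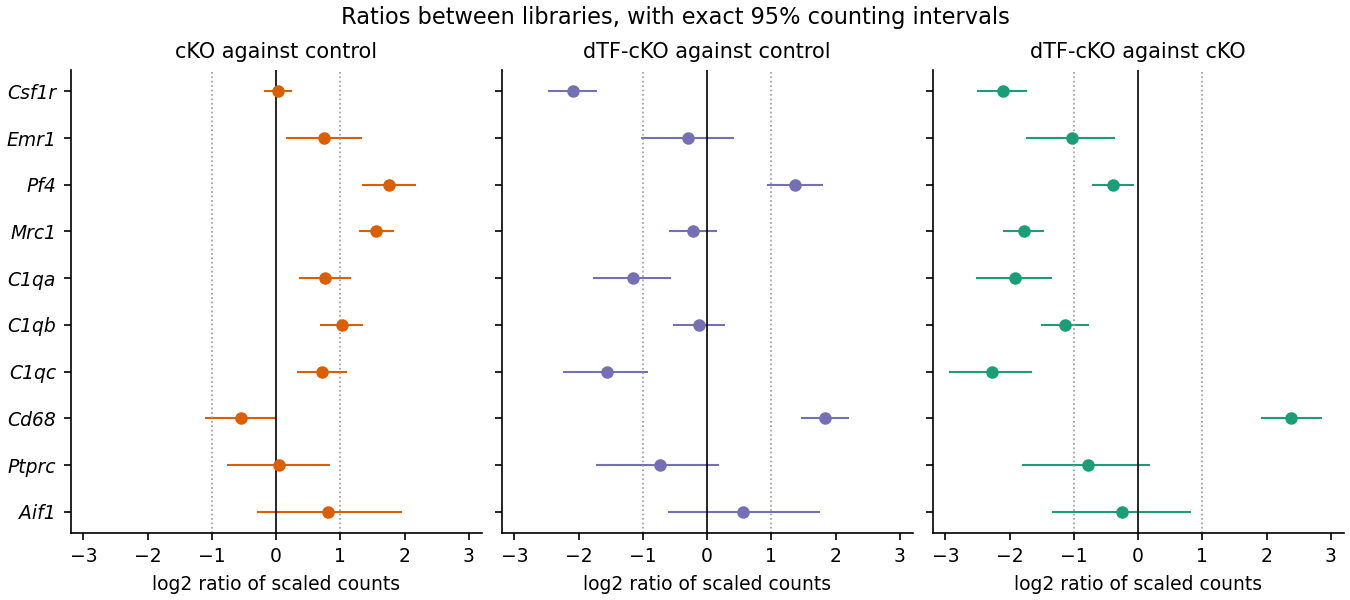
Log2 ratio of TMM-scaled counts (x axis) for each of the 10 macrophage genes (y axis) in the 3 comparisons, with exact 95% counting intervals as bars and dotted lines at a 2-fold difference. Cd68 lies at the high end and Csf1r, C1qa and C1qc at the low end of both comparisons with the dTF-cKO, while Pf4 and Mrc1 lie highest in the cKO against the control; under the stroma scaling C1qa lies above 0 in both dTF-cKO comparisons and C1qc in that with the control.

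The make-up of the macrophage counts differed between libraries, and this comparison does not depend on how libraries are scaled to each other. Csf1r held 9.22% of the summed counts in the dTF-cKO (7.25% to 11.5%) and 20.9% in the cKO (18.8% to 23.1%), against 34.4% in the control (31.6% to 37.4%). Cd68 held 30.9% in the dTF-cKO (27.6% to 34.3%) and 3.12% in the cKO (2.29% to 4.16%), against 7.66% in the control (6.15% to 9.41%). The gene with most counts was thus Cd68 in the dTF-cKO, Mrc1 in the cKO and Csf1r in the control. Pf4 held 18.3%, 12.6% and 6.28% in the same order, so its share was larger in both Cre libraries. Emr1 held between 3.74% and 4.06% in the 3 libraries, Aif1 between 1.20% and 2.01% and Ptprc between 1.80% and 2.95%. Odds against the other 9 genes, with intervals that exclude 1, put Cd68 5.38-fold above the control in the dTF-cKO (4.07 to 7.16) and Csf1r at 0.194-fold (0.144 to 0.257).

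**Figure D2:**
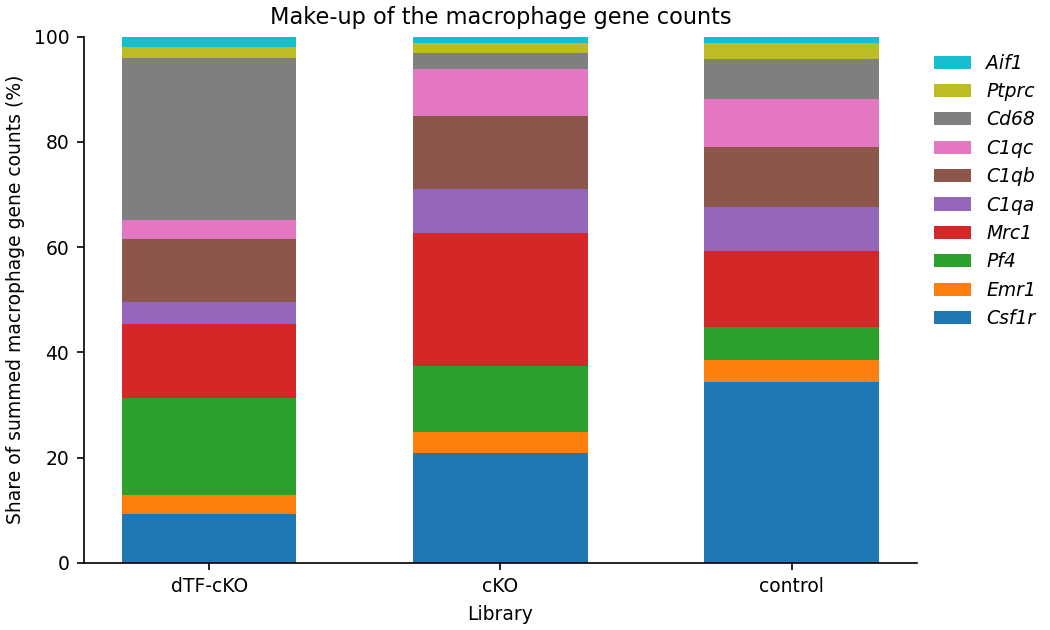
Share of the summed counts of the 10 macrophage genes (y axis, percent) taken by each gene in the 3 libraries (x axis), as stacked bars that add to 100%. Cd68 takes 30.9% in the dTF-cKO, 3.12% in the cKO and 7.66% in the control, and Csf1r 9.22%, 20.9% and 34.4%.

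Csf1r encodes the receptor tyrosine kinase through which macrophages receive their survival signal. It had 69 counts in the dTF-cKO, 301 in the cKO and 373 in the control. Per kb of its longest coding transcript these were 5.24, 22.6 and 22.2 CPM, so the dTF-cKO stood apart and the other libraries lay within counting error of each other. Csf1r was 4.23-fold lower in dTF-cKO than control tissue (3.27 to 5.55) and 4.32-fold lower than in the cKO (3.31 to 5.70), and it lay below both under all 5 scalings. The cKO to control ratio was 1.02 (0.874 to 1.19), and its sign changed with the scaling. Hmgxb3 overlaps Csf1r on the other strand and had 245, 121 and 151 counts in the dTF-cKO, cKO and control. No source used here gives the strand setting of the counting, so reads in the overlap may be split in either way.

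Of the ligands, Csf1 was measured and Il34 fell below the floor. Csf1, made by mesenchymal and endothelial cells, had 128 counts in the dTF-cKO, 189 in the cKO and 278 in the control. Its ratio to the control was 0.588 in the dTF-cKO (0.473 to 0.728; above 1 under the stroma scaling) and 0.860 in the cKO (0.711 to 1.04). Il34, which keratinocytes also make and which is named after its values were seen, had 6, 27 and 9 counts in the same order. Spi1, which encodes PU.1 and drives transcription of Csf1r, had 11 counts in the dTF-cKO and 32 in the cKO, against 65 in the control. It was 4.63-fold lower in dTF-cKO than control tissue (2.42 to 9.72). Across the 5 scalings its log2 difference ran from -2.36 to -0.44, so the direction held but not the size.

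Osteoclasts also carry Csf1r, and the summed counts of their genes were lower in both Cre libraries. The 13 osteoclast genes summed to 754 counts in the dTF-cKO, 945 in the cKO and 4131 in the control. Against the control, 4 of 7 measured ones were at least 2-fold lower in the dTF-cKO and 5 of 7 in the cKO. Of all genes 20.9% and 6.78% were. Atp6v0d2, lower in both, passed the floor only through the control, so these counts are partly set by the floor. Mmp9, a collagenase of osteoclasts, had 73, 123 and 1488 counts in the dTF-cKO, cKO and control. Ocstamp and Oscar, genes of osteoclast fusion and co-stimulation chosen after their values were seen, had 0 counts in both Cre libraries and 28 and 13 in the control. Not all of the list was low. Clcn7, chosen likewise, lay above the control under all 5 scalings in the cKO and 4 of 5 in the dTF-cKO. Tcirg1, chosen likewise, lay above it under 4 of 5 in the dTF-cKO and below it under all 5 in the cKO. In summed counts the cKO thus had a low osteoclast signal with Csf1r at the level of the control. The dTF-cKO had low values of both. The part of osteoclasts in the Csf1r counts was not tested.

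C1qa, C1qb and C1qc encode the 3 chains of C1q and lie side by side on the minus strand of chromosome 4, from 136880129 to 136898803 in GENCODE vM21. Together they had 148 counts in the dTF-cKO, 449 in the cKO and 314 in the control. The sum was 1.81-fold that of the control in the cKO (1.56 to 2.10). In the dTF-cKO it was 1.66-fold lower than in the control (1.36 to 2.03) and 0.333-fold its cKO value (0.275 to 0.402). All 3 chains lay above the control in the cKO under all 5 scalings, while in the dTF-cKO all 3 lay below the control except under the stroma scaling.

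Within the trio, C1qb behaved differently from its neighbours in the dTF-cKO. C1qa had 32 counts in the dTF-cKO, 122 in the cKO and 91 in the control. C1qc had 26, 127 and 98 counts, and C1qb 90, 200 and 125 counts, in the same order. C1qa and C1qc were thus low in the dTF-cKO alone, where C1qb stood near its control value. The C1qb to C1qa count ratio was 2.81 in the dTF-cKO (1.86 to 4.35) and 1.64 in the cKO (1.30 to 2.07), against 1.37 in the control (1.04 to 1.82). As an odds ratio between libraries, C1qb to C1qa was 2.04-fold higher in dTF-cKO than control tissue (1.23 to 3.45) and C1qb to C1qc 2.71-fold higher (1.59 to 4.71). C1qc to C1qa did not differ beyond counting error, at 0.755 (0.399 to 1.42). In the cKO against the control the intervals of all 3 pair ratios included 1. The trio's partners in the first complement complex, the proteases encoded by C1ra and C1s1 (the second chosen after its values were seen), had 6 and 28 counts in the dTF-cKO, 28 and 48 in the cKO, and 36 and 32 in the control.

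Mrc1, Emr1 and Ptprc encode proteins of the cell surface. Mrc1, the mannose receptor that binds sugars of microbes and of worn-out glycoproteins, had 105 counts in the dTF-cKO, 363 in the cKO and 156 in the control. The cKO was 2.94-fold above the control (2.43 to 3.57), and above it under all 5 scalings. The dTF-cKO to control ratio was 0.860 (0.665 to 1.11), and the dTF-cKO lay 3.42-fold below the cKO (2.75 to 4.29), but under the stroma scaling the dTF-cKO lay above both. Set against Csf1r within a library, Mrc1 was 3.63-fold higher in the dTF-cKO (2.51 to 5.28) and 2.88-fold higher in the cKO (2.25 to 3.70) than in the control.

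Emr1, which encodes the adhesion receptor F4/80, had 28 counts in the dTF-cKO, 58 in the cKO and 44 in the control. It was 1.67-fold higher in cKO than control tissue (1.11 to 2.53), and the interval for the dTF-cKO against the control included 1 (0.487 to 1.34). Ptprc encodes CD45, a phosphatase of nearly all nucleated blood cells. Its 15, 26 and 32 counts in the dTF-cKO, cKO and control gave ratios to the control of 0.599 (0.301 to 1.14) and 1.03 (0.588 to 1.78), differences within counting error. Per kb of transcript Ptprc was the lowest of the 10 genes in all 3 libraries, at 1.06, 1.81 and 1.76 CPM.

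Cd68 and Aif1 encode proteins inside the cell. Cd68, a heavily glycosylated protein of late endosomes and lysosomes, had 231 counts in the dTF-cKO, 45 in the cKO and 83 in the control. The dTF-cKO alone was high. Cd68 was 3.56-fold its control value there (2.75 to 4.63) and 5.18-fold its cKO value (3.75 to 7.30), and above both under all 5 scalings. In the cKO it was 0.686-fold its control value (0.466 to 0.997). The ratio of Cd68 to Csf1r counts was 3.35 in the dTF-cKO (2.55 to 4.45) and 0.150 in the cKO (0.107 to 0.205), against 0.223 in the control (0.173 to 0.283). Cd68 lies on chromosome 11 from 69664213 to 69666153, 783 bases from Eif4a1 on the same strand. Eif4a1, an abundant translation factor, had 2235, 1510 and 1357 counts in the dTF-cKO, cKO and control, and its part in the Cd68 counts was not tested. Aif1, the actin-bundling protein IBA1, had 15, 18 and 13 counts, and its intervals included 1 in all 3 comparisons.

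Pf4 encodes the chemokine CXCL4, which platelets store in granules and embryonic macrophages also express. It had 137 counts in the dTF-cKO and 181 in the cKO, against 68 in the control, so both Cre libraries were high. The ratios to the control were 2.57 (1.91 to 3.49) and 3.37 (2.53 to 4.52), above 1 under all 5 scalings. The dTF-cKO to cKO ratio was 0.765 (0.608 to 0.960; above 1 under the stroma scaling). The 13 genes of megakaryocytes and platelets summed to 65 counts in the dTF-cKO, 126 in the cKO and 163 in the control. Itgb3, an integrin also found on osteoclasts, gave 19, 68 and 124 of these, so the direction of the sum rests on it. Itga2b, the other measured gene of the list, had 12, 21 and 18 counts. Its ratios to the control were 0.852 in the dTF-cKO (0.374 to 1.87) and 1.48 in the cKO (0.749 to 2.94). The part of platelets in the Pf4 counts was not tested. Of the 13 genes, 5 had 0 counts in the dTF-cKO, 3 in the cKO and 4 in the control. Ppbp, the platelet chemokine gene 2372 bases from Pf4 and chosen after its values were seen, had 27 counts in the dTF-cKO and 6 in the cKO, against 2 in the control. The other genes of the list are not reported here by name.

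Set per kb of transcript, Pf4 was the highest and Ptprc the lowest of the 10 genes in each library. In the dTF-cKO Pf4 and Cd68 led at 83.2 (69.9 to 98.4) and 67.1 CPM per kb (58.7 to 76.3), intervals that overlap, and C1qb came next at 29.6 (23.8 to 36.3). C1qa, C1qc, Mrc1, Aif1 and Csf1r followed between 11.0 and 5.24, each overlapping its neighbour, and then Emr1 at 3.09, whose interval overlaps that of Csf1r. In the cKO Pf4 stood alone at 109 CPM per kb (93.6 to 126), above C1qb at 65.03 (56.3 to 74.7). C1qa and C1qc, at 41.5 and 37.3, did not separate from each other, nor did Mrc1 and Csf1r, at 23.9 and 22.6. In the control Pf4 and C1qb, at 32.3 (25.1 to 41.01) and 32.1 (26.8 to 38.3), could not be told apart. C1qa, C1qc, Csf1r and Cd68 lay between 24.5 and 18.9 there with overlapping intervals, above Mrc1 at 8.12.

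**Figure D3:**
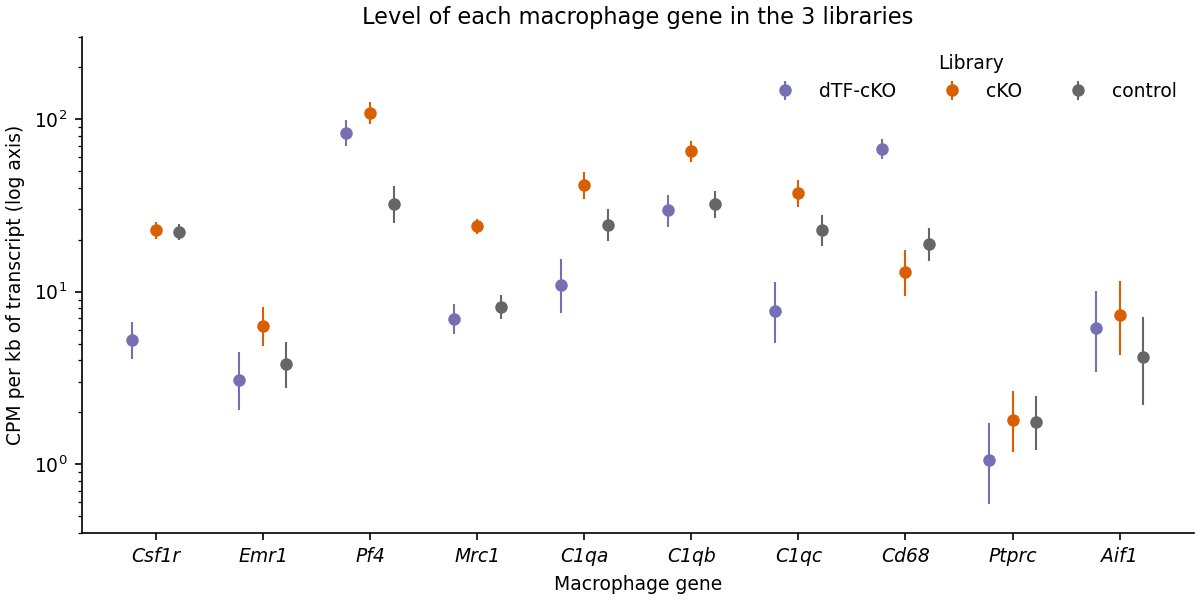
Level of each macrophage gene (x axis) as CPM per kb of its longest coding transcript (y axis, log scale) in the dTF-cKO, cKO and control libraries, with exact 95% counting intervals. Csf1r, C1qa and C1qc are lowest in the dTF-cKO and Cd68 is highest there on the TMM scale (under the stroma scaling C1qa and C1qc lie above the control), while Mrc1 is highest in the cKO and Pf4 is above the control in both Cre libraries.

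Other macrophage genes were described in lists chosen from known functions. Their counts are to be set against the shares of all 12127 genes. In the cKO 9.66% of all genes were at least 2-fold higher than in the control and 6.78% lower, and in the dTF-cKO 19.5% and 20.9%. A list count near these shares is not a feature of that list. Among 13 measured Fc receptor and ITAM signalling genes, which relay antibody and adaptor signals in myeloid cells, 3 were at least 2-fold higher and 0 lower in cKO than control tissue (median 0.48). Fcer1g, the shared Fc receptor chain, was 3.41-fold higher (2.39 to 4.96) and Fcgr3 2.85-fold higher (2.10 to 3.90). In the dTF-cKO against the control 1 was higher and 5 were lower (median -0.19, above 0 under the stroma scaling). Inpp5d, a phosphatase that restrains such signals, had 14 counts in the dTF-cKO and 72 in the control. The higher gene was Fcgr2b, the inhibitory Fc receptor, at 7.66-fold (3.59 to 18.8).

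Of 11 measured pan-leukocyte genes, 3 were higher and 0 lower in cKO than control tissue (median 0.29), among them the actin regulator Coro1a at 2.47-fold (1.88 to 3.27). Dock2, another of the 3, passed the floor only through the cKO. In the dTF-cKO 2 were higher and 7 lower (median -1.19, above 0 under the stroma scaling), where 19.5% and 20.9% of all genes were. Fermt3, the integrin activator of blood cells, was 5.48-fold lower there (2.71 to 12.5), while the tetraspanin gene Cd53 was 4.09-fold higher (2.25 to 7.86). Fermt3 lay below the control under all 5 scalings, but only by a log2 difference of -0.67 under the stroma scaling.

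Scavenger and phagocytic receptors differed in both directions. Of 13 measured, 3 were at least 2-fold higher and 0 lower in cKO than control tissue (median -0.17): Lyve1, the hyaluronan receptor of lymphatic vessels and of some macrophages, at 6.89-fold (4.68 to 10.5), Cd163, a haemoglobin receptor, at 3.90-fold (1.99 to 8.21), and Cd36, a lipid receptor of several cell types, at 3.01-fold (2.10 to 4.36). In the dTF-cKO against the control 4 were higher and 5 lower, where 19.5% and 20.9% of all genes were. Cd14 and Trem2 passed the floor only through the dTF-cKO, and Cd163 and Msr1 only through the cKO. The counts of higher genes are therefore partly set by the floor. The median was -0.28 (above 0 under the stroma scaling). Cd14, the lipopolysaccharide co-receptor, had 73 counts in the dTF-cKO and 6 in the control. Stab1 and Mertk, receptors for dying cells, were 5.56-fold (4.32 to 7.25) and 5.29-fold lower (3.33 to 8.82). Both lay below the control under all 5 scalings, but only by log2 differences of -0.72 and -0.64 under the stroma scaling. Cd163 had 1 count in the dTF-cKO and 12 in the control.

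Lysosome and NADPH oxidase genes split in the dTF-cKO. Of 18 measured, 6 were higher and 3 lower than in the control, where 19.5% and 20.9% of all genes were. The median was 0.82 and lay above 0 under all 5 scalings. Gpnmb, a glycoprotein of lysosomes and melanosomes, was 27.7-fold higher (17.3 to 47.2), and the proteases encoded by Ctsl and Lgmn were 3.34-fold (2.99 to 3.72) and 3.13-fold higher (2.77 to 3.53). Ncf1, which encodes an oxidase subunit restricted largely to phagocytes, was 4.46-fold lower (2.26 to 9.80). It lay below the control under all 5 scalings, but only by a log2 difference of -0.39 under the stroma scaling. In the cKO against the control 3 genes were higher (Ncf1, Cybb and Lyz2) and 0 lower, with a median of 0.20. Of all genes 9.66% and 6.78% were. Cybb and Lyz2 stood on the limit, at log2 differences of 1.01 and 1.02. Across the 5 scalings their lowest values were 0.81 and 0.82, and Cybb passed the floor only through the cKO. Lysosomal enzymes are made by all cell types of the tissue, and the part of macrophages in their counts was not tested.

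All 13 genes of inflammatory activation, measured or not, summed to 2086 counts in the dTF-cKO, 386 in the cKO and 278 in the control, and the dTF-cKO sum was 9.58-fold that of the control (8.45 to 10.9). Of 8 that passed the floor, 6 were at least 2-fold higher in the dTF-cKO and 1 lower (Tlr2, which lay above the control under the stroma scaling). Tnf and Ptgs2 passed it only through the dTF-cKO library, so this count is partly set by the floor. Tnf had 66 counts in the dTF-cKO, 2 in the cKO and 1 in the control. Arg1, the arginase of alternatively activated macrophages that epidermis also expresses, had 403, 39 and 2 counts, and Nfkbia, an NF-kB target and inhibitor, had 1201, 186 and 133. Ptgs2 had 150 counts in the dTF-cKO and 5 in each of the others. In the cKO 2 of the 8 were higher than in the control (Il1rn and Arg1). Epidermal genes summed 86.2-fold above the control in the dTF-cKO (79.4 to 93.7) and 144-fold in the cKO (132 to 156), and their part in the Arg1 and Il1rn counts was not tested.

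Of 8 measured chemokine and receptor genes, 2 were higher and 2 lower in dTF-cKO than control tissue (median -0.047, above 0 under the stroma scaling). These counts lie near the shares of all genes, 19.5% and 20.9%. Cx3cr1, the fractalkine receptor of resident macrophages, had 7 counts in the dTF-cKO, 113 in the cKO and 83 in the control. Cxcl16, a membrane chemokine of macrophages and epithelia, had 363, 17 and 16 counts. In the cKO 2 were higher (Cxcl14 and Cx3cl1) and Ccl9 was lower. Cx3cl1 stood on the limit, at a log2 difference of 1.01, and ran from 0.81 to 1.11 across the 5 scalings. Of 10 complement genes, 1 was higher (C2) and 3 were lower in the dTF-cKO, among them C1ra and Cd93. In the cKO 1 was higher (C2) and 1 lower. C2 passed the floor only through the dTF-cKO. The median was -0.45 in the dTF-cKO (above 0 under the stroma scaling) and -0.088 in the cKO (above 0 under 1 of the 5 scalings).

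Of 9 measured myeloid transcription factors, 3 were higher and 0 lower in cKO than control tissue (median 0.58). Cebpa was 13.1-fold higher in the cKO (8.79 to 20.2), and Cebpb had 175, 129 and 34 counts in the dTF-cKO, cKO and control. In the dTF-cKO 3 were higher (Cebpa, Cebpb and Irf5) and 4 lower, among them Maf, Spi1 and Id3, with a median of -0.12. Of all genes 19.5% and 20.9% were. Under the stroma scaling the median lay above 0, and Maf, Spi1 and Id3 below it. Maf had 47 counts in the dTF-cKO, 361 in the cKO and 450 in the control. Cebpa, Cebpb, Maf and Id3 are also expressed outside the myeloid lineage, and the part of other cells was not tested.

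**Figure D4:**
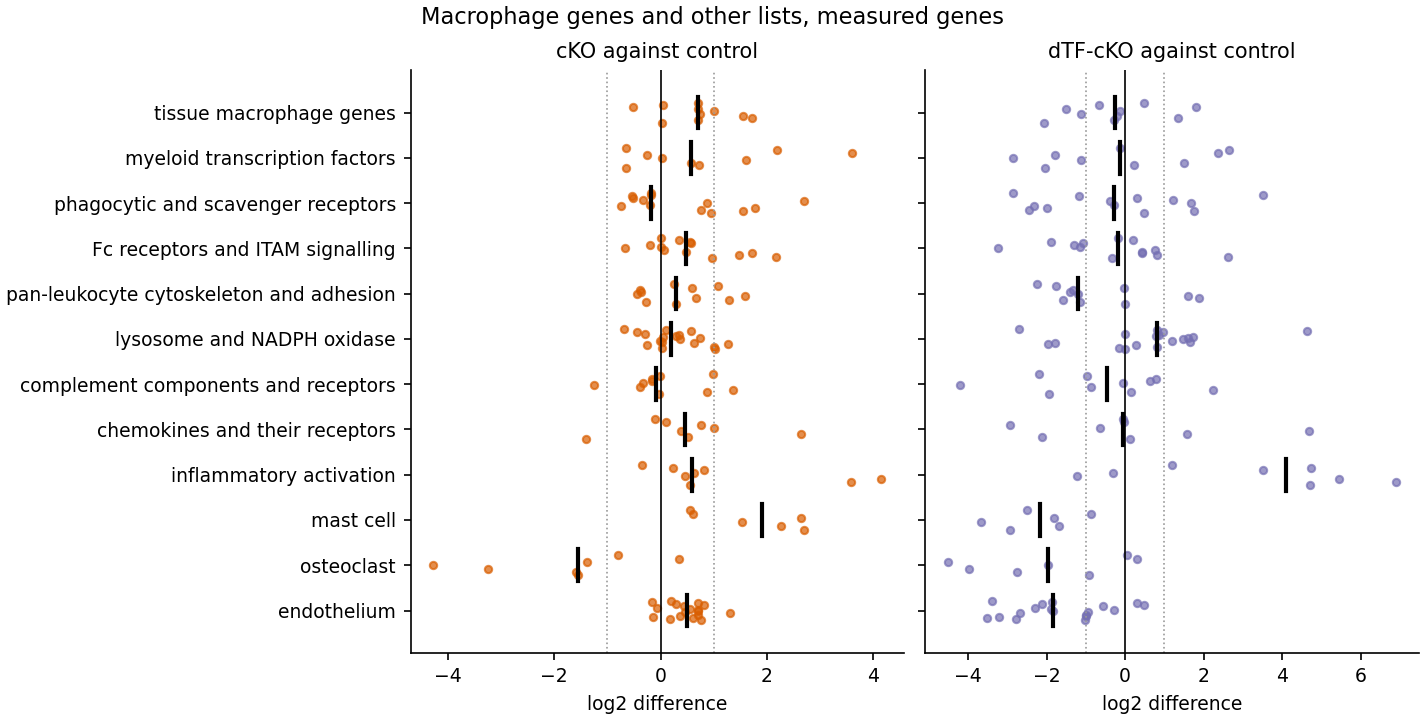
Log2 difference (x axis) of each measured gene (points) in the macrophage genes and 11 other lists (y axis), with the list median as a black bar and dotted lines at a 2-fold difference, for the cKO and the dTF-cKO against the control. In the dTF-cKO the lysosomal median lies at 0.82 and the pan-leukocyte median at -1.19 on the TMM scale, the second above 0 under the stroma scaling; 2 of the inflammatory genes passed the floor only through the dTF-cKO.

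Markers of other blood cells were looked at because they can carry the same genes. None of 12 granulocyte and none of 12 lymphocyte genes passed the floor. The lymphocyte genes summed to 35 counts in the dTF-cKO, 18 in the cKO and 20 in the control, and the dTF-cKO sum was 2.24-fold that of the control (1.26 to 4.09). The granulocyte genes summed to 21, 61 and 26 counts in the same order, and the cKO sum was 2.97-fold that of the control (1.85 to 4.89). Of the 12 lymphocyte genes, 8 had 0 counts in the dTF-cKO, 7 in the cKO and 7 in the control. Cd3e, Cd3g, Cd3d, Cd8a and Ms4a1, chosen after their values were seen, had 0 counts in all 3 libraries. The genes that carried the list's counts are not reported here by name. Of 8 monocyte genes only S100a4 passed the floor, and it did so only through the control. It had 1 count in the dTF-cKO and 17 in the cKO, against 49 in the control. Ccr2, on both the monocyte and chemokine lists and chosen after its values were seen, had 2, 16 and 15 counts. The 10 mast cell genes summed to 120 counts in the dTF-cKO and 2042 in the cKO, against 610 in the control. The mast cell sum was therefore 4.23-fold higher in the cKO (3.87 to 4.64) and 3.98-fold lower in the dTF-cKO (3.27 to 4.88), in directions that held for the list median under all 5 scalings. Mast cells carry CD45, and their part in the Ptprc counts was not tested. Cd207, a Langerhans cell gene chosen after its values were seen, had 0 counts in all 3 libraries. That allows up to 1.07, 1.06 and 0.839 CPM in the dTF-cKO, cKO and control. Cells of that lineage without Cd207 expression would be missed.

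Of the microglia genes, P2ry12, Siglech and Gpr34, chosen after their values were seen, had at most 8 counts in any library, and Tmem119 and Olfml3, which osteoblasts and other mesenchymal cells also express, made up most of the list's counts in the cKO and control. Lymphatic vessels also express Mrc1 and Lyve1. Endothelial genes had a median log2 difference from the control of -1.85 in the dTF-cKO and 0.50 in the cKO. Their sum was 1.40-fold that of the control in the cKO (1.35 to 1.46). In the same comparison Mrc1 was 2.94-fold its control value, and Lyve1, which is not on the endothelial list, 6.89-fold (4.68 to 10.5). The part of vessels in the Mrc1 counts was not tested.

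How far the dTF-cKO differed from the control depended on the scaling more than in the cKO. The stroma scaling moved the ratio of library sizes by 1.75 on the log2 scale in the dTF-cKO against the control and by -0.20 in the cKO against the control, and put the median of all genes at 1.77 and -0.13. Under it Csf1r lay at -0.33 and Cd68 at 3.54 in the dTF-cKO against the control. Across the 5 scalings, 8 of the 10 genes kept their direction in the cKO against the control (all but Csf1r and Ptprc), 4 in the dTF-cKO against the control (Csf1r lower, and Cd68, Pf4 and Aif1 higher) and 3 in the dTF-cKO against the cKO (Csf1r and C1qc lower, and Cd68 higher).

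**Figure D5:**
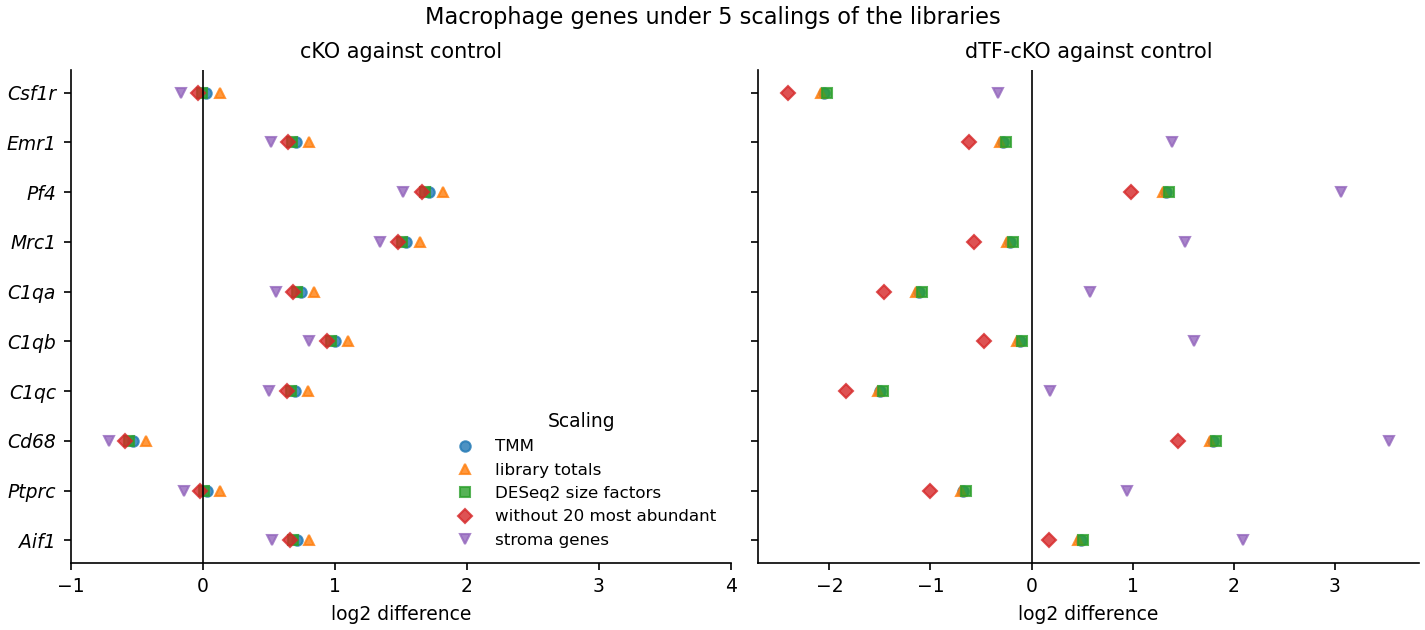
Log2 difference from the control (x axis) of the 10 macrophage genes (y axis) under 5 scalings of the libraries (symbols), for the cKO and the dTF-cKO. In the cKO the symbols of a gene lie close together, and in the dTF-cKO the stroma scaling stands about 1.75 above the TMM scaling, which brings 6 of the 10 genes across 0.

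Genes with a pattern most like the summed macrophage genes were sought among 7663 non-member genes of at least 20 CPM. Likeness was the larger of the gaps in the log2 differences of the cKO and the dTF-cKO from the control, over these 3 libraries. The sum lay at 0.75 and -0.18. The nearest were Lage3 (gap 0.010), Zfp637 (0.048), Ppfibp2 (0.066), Dusp6 (0.069) and Tanc1 (0.082), followed by Magi1, Dynll1, Slbp, Egfl7 and Golga1. Within a gap of 0.25 there were 87 genes, so the pattern of the sum is shared by many genes in so few libraries.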

How the data were processed

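Gene symbols with raw read counts, whole numbers not normalised, were deposited by the authors for 3 libraries; per the labels' protocols the libraries were made with an ion Total RNA-Seq kit, and mm10 is the build named by the submitters' processing notes. No source used here gives the aligner, counter, annotation or strand setting. Counts were scaled with TMM factors (edgeR 4.0.16, R 4.3.3) with a prior count of 2 for log2 CPM. With 1 library per genotype no test was run and no p-value computed. A gene counted as higher or lower at a log2 difference of at least 1 and a mean of at least 5 CPM. Ratios are of scaled counts, with exact conditional binomial 95% intervals, and shares have Clopper-Pearson intervals. Reads lack molecular identifiers, so intervals and the limit for 0 counts (3 counts) cover counting error only. Levels per kb used the longest coding transcript in GENCODE vM21. Totals were 2905264, 2678457 and 3634819 counts for dTF-cKO, cKO and control.

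The members and the 24 other gene lists were chosen with earlier results of these data known. Of 327 list symbols 325 were found as written and 2 under another symbol (C1s as C1s1, Chi3l3 as Chil3). Named genes were all members, and from each other list up to 6 genes at least 2-fold different with an interval excluding 1, or the 2 most abundant; others are said to be chosen after their values were seen. Some genes of these lists are not reported here by name. Some genes passed the floor only through the library where they were highest, so their lists' counts and medians are partly set by it: Tnf, Ptgs2, Cd14, Trem2, C2 and Cnn1 through the dTF-cKO; Aif1, Msr1, Cd163, Fcgr1, Vav1, Dock2, Cybb, Tlr4, Cd74, Itga2b, Ivl and Dsg1a through the cKO; and S100a4, Atp6v0d2, Bglap and Ank1 through the control. The remaining lists were pericytes with smooth muscle (the pericyte list), dermal fibroblasts, erythroid cells, antigen presentation and skeletal muscle. Their median log2 differences from the control were -2.09, -1.47, 0.90, 0.46 and -5.77 in the dTF-cKO, and 0.38, -0.26, -0.17, 1.46 and -2.52 in the cKO. Median and sum of the pericyte list parted in the dTF-cKO, where the sum was 1.47-fold that of the control (1.40 to 1.53). Of its 12 genes 7 counted as lower there and 3 as higher, among them Tagln at 6.96-fold (5.94 to 8.18). Alternatives were scaling to library totals, DESeq2 1.42.0 size factors, totals from which each library's 20 most abundant genes were left out, and the stroma scaling (median ratio over 45 genes of the endothelium, pericyte and dermal lists); prior counts of 0.5 and 10; floors of 0 and 20 CPM; and size rules of 1.5-fold, 3-fold and an interval excluding 1. Calls and intervals were run on simulated data that held counting error only, with known library sizes. Such data could not test the scaling or the variation between embryos.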

Additional observations from a re-analysis of the deposited data

How the results depend on the processing

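No paired analysis was possible because each genotype had 1 library and the labels give no replicate numbers, and for the same reason no library could be left out. In the cKO against the control the count of higher members was 3, and 7 with a 1.5-fold rule, 1 with a 3-fold rule and 6 with intervals excluding 1, a rule that also gave 1 lower member in place of 0. The log2 ratio of the summed members was 0.75, and 0.56 under the stroma scaling, 0.94 per kb and, chosen after seeing the data, 1.02 without Csf1r and 0.56 without Mrc1. In the dTF-cKO against the control, 2 members were higher and 3 lower: higher ones numbered 1 without the 20 most abundant genes in the totals, 6 under the stroma scaling and 1 with the 3-fold rule, and lower ones 0 under the stroma scaling and 1 with the 3-fold rule. The summed log2 ratio of -0.18 became -0.54 without the 20 most abundant genes, -0.37 without Pf4 and Ptprc, -0.0049 without the C1q genes and, chosen after seeing the data, -0.60 without Cd68 and -0.94 without Cd68 and Pf4. It reversed to 1.57 under the stroma scaling, to 0.37 per kb and to 0.29 without Csf1r (chosen after seeing the data). In the dTF-cKO against the cKO, 1 higher and 5 lower members became 4 and 0 under the stroma scaling. The summed log2 ratio of -0.93 became -1.06 with library totals, -1.23 without the 20 most abundant genes, -0.71 without the C1q genes, -0.57 per kb and, chosen after seeing the data, -1.42 without Cd68, -1.66 without Cd68 and Pf4, -0.73 without Csf1r and -0.73 without Mrc1; it reversed to 1.01 under the stroma scaling. Over the 5 scalings 6 of 10 members changed sign in the dTF-cKO against the control and 7 against the cKO, as did 10 and 12 of 23 list medians, the macrophage genes' own median among them in both. Of members at least 2-fold different on the TMM scale, the stroma scaling reversed C1qa (0.58) and C1qc (0.18) against the control and Mrc1 (0.17), C1qa (0.028) and C1qb (0.80) against the cKO. Of list medians at least 2-fold different, it reversed those of pan-leukocyte (0.44), platelet (0.40) and dermal (0.22) genes against the control, and of the macrophage genes (0.84), myeloid factors (0.69), Fc receptor (0.71), platelet (0.59) and dermal (0.17) genes against the cKO. The shift follows from the scaling's own construction, since it sets the stroma genes to no difference. Prior counts, floors and DESeq2 factors kept the members' counts within 1.5 times. Depth limits the rarest members: Aif1, with 13 to 18 counts a library, had intervals that held both no difference and a 2-fold one.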
